A study of Mus musculus with 6 samples.

Results

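The EGF receptor family and its ligands were followed in TM3 cells, a line derived from mouse Leydig cells, with and without overexpression of A20. The set was taken by gene symbol from the count table and held 10 genes of the 54532 listed, namely 3 receptors (Egfr, Erbb2 and Erbb3) and 7 ligands (Areg, Ereg, Hbegf, Tgfa, Btc, Epgn and Nrg1). Tnfaip3 encodes A20, which edits ubiquitin chains and dampens NF-kB signals. RNA was sequenced from 3 libraries of TM3 cells labelled as overexpression controls with a wild-type genotype and from 3 libraries of TM3 cells overexpressing A20. Both groups grew in the same medium with fetal bovine and horse serum, which can itself carry growth factors. The labels name neither the vector, the promoter or the species of the A20 sequence, nor whether the controls carried an empty vector, whether the cells were clones or pools, or whether the libraries came from separate cultures. The p-values below therefore measure the spread between these libraries, which may be technical.

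The receptors are transmembrane tyrosine kinases that pair on ligand binding and feed the RAS, MAP kinase and PI3 kinase cascades. Amphiregulin, epiregulin, heparin-binding EGF-like growth factor, TGF-alpha, betacellulin and epigen bind the EGF receptor, and neuregulin binds ERBB3 and ERBB4. ERBB2 has no known ligand of its own and acts as a partner, and ERBB3 has a weak kinase. The ligands are made as membrane precursors and are released by metalloproteases such as ADAM17. In the gonads, gonadotropins acting through cAMP are known to induce some of these ligands, and EGF receptor activity takes part in the steroid response of Leydig cells.

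The letters before the start of a gene were read for the members that had a window. RefSeq windows on GRCm38.p6 were found for 6 of the 10 genes, and those of 3 are shown because they stand for 3 kinds of level in these cells. Egfr was the most abundant member, Areg was low in each library, and Tgfa had counts in 1 library. Each line gives the 250 bases before the start, 5′ to 3′ on the plus strand, with matches to the motifs listed after them in capitals.
Egfr, chr11:16751953-16752202: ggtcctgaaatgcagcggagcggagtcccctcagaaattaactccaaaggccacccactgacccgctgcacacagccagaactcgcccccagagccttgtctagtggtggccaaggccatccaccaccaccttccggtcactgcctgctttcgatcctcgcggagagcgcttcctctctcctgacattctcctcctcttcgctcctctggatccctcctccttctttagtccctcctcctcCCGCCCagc
Areg, chr5:91139349-91139598: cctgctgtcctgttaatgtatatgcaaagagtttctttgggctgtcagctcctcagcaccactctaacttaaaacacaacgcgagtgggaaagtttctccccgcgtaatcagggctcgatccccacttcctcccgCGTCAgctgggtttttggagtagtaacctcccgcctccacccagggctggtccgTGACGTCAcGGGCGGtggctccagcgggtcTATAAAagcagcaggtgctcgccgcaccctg
Tgfa, chr6:86194972-86195221: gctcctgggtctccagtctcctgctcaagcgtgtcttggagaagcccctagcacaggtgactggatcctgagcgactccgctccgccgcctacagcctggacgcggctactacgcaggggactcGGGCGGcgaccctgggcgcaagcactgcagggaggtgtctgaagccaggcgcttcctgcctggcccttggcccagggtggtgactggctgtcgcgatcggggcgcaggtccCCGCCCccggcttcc

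The motifs were searched on both strands. They were the TATA box (TATAAA), the GC box (GGGCGG), the core of the cAMP response element (TGACG), the SF-1 site (CAAGGTCA), the AP-1 site (TGANTCA) and the NF-kB site, where N is any base. Among 32817 windows of this length in the same table, 12.4% held the TATA box, 32.7% the GC box, 17.7% the cAMP core, 1.33% the SF-1 site, 6.75% the AP-1 site and 0.357% the NF-kB site. The Areg window held the TATA box once, beginning 31 bases before the start, and the cAMP core 3 times. It also held 1 GC box, beginning 52 bases before the start. A pair of these cores lay on opposite strands and overlapped as TGACGTCA, beginning 61 bases before the start. The Egfr window held 1 GC box and the Tgfa window 2, and neither held the TATA box or the cAMP core. The windows of Erbb2, Btc and Epgn, not shown, each held the cAMP core once and no GC box. That of Epgn also held the TATA box once, beginning 86 bases before the start. GC content was 60.8% for Egfr, 57.2% for Areg and 69.2% for Tgfa, against a median of 52.4% over all windows. No SF-1, AP-1 or NF-kB match stood in the windows of these 3 genes or of Erbb2, Btc and Epgn, which says only that those letters are not in these windows.

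Total counts ran from 13841287 to 16917979 per library, so that a gene with 0 counts could lie at up to 0.177 to 0.217 CPM (counts scaled to a common library total), the level of 3 counts. This limit covers counting error only. Control replicate 1 stood apart. Its log2 CPM correlated with those of the other 5 libraries at 0.914 to 0.934 across 13350 genes, which are not independent replicates, whereas those 5 correlated with one another at 0.958 to 0.987. The Leydig cell markers Star, Cyp11a1, Cyp17a1, Hsd3b1, Nr5a1, Lhcgr and Insl3 summed to 2039 CPM there and to 3.97 to 7.86 CPM in the other 5, where Cyp17a1, Hsd3b1 and Lhcgr had 0 counts. High levels of the steroidogenic markers that the labelled cell type calls for were thus found in 1 of 6 libraries. The tests were run with all 6 libraries and without control replicate 1. Tnfaip3 itself stood at 41.0, 33.7 and 43.6 CPM with A20 overexpression and at 30.9, 11.9 and 15.2 CPM in control replicates 1, 2 and 3, with no overlap. The log2 fold change of Tnfaip3 was 1.08 ± 0.30 (SE, adjusted p = 0.331 in edgeR) with all 6 libraries and 1.51 ± 0.19 (SE, adjusted p = 0.000256) without control replicate 1.

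No member passed the test with all 6 libraries. Nrg1 passed it, as lower with A20 overexpression, once control replicate 1 was left out. With all 6 libraries, 7 of the 10 members had enough counts to be tested, and edgeR's quasi-likelihood test called 0 of them, where it called 0.015% of all 13350 genes tested. An unadjusted p under 0.05 was reached by 0 of the 7, against 10% of all genes, and DESeq2 and limma-voom also called 0. The log2 fold changes of the 7, A20 overexpression over control, had a median of 0.24, beside -0.03 over all genes tested, and of 0.41 without control replicate 1, beside -0.0028. Without control replicate 1, edgeR called Nrg1 lower and none of the other 6, against 2.68% of 13658 genes called lower and 4.6% called in either direction. At an unadjusted p under 0.05 there were 2 of the 7, Nrg1 and Erbb2, against 21.6% of all genes. In bulk RNA, fewer cells making a transcript and less transcript per cell cannot be told apart.

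**Figure D1:**
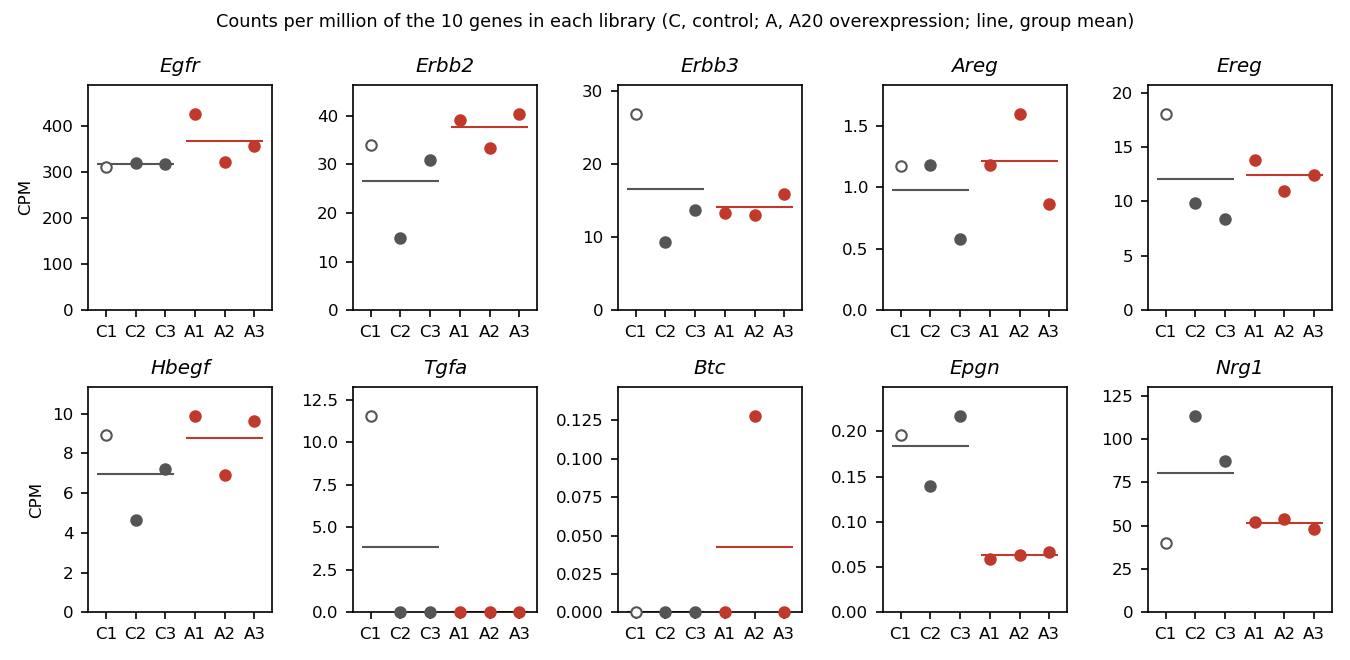
CPM (vertical axis, from 0, scaled per gene) of the 10 genes in control libraries (C1 to C3, grey, C1 open) and A20-overexpressing libraries (A1 to A3, red), with group means as lines. Nrg1 lies at 87.3 to 113 CPM in C2 and C3, above the red points at 48.0 to 54.0 CPM, with C1 below them at 40.2 CPM, and Tgfa has counts in C1 alone.

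On the FPKM scale, which divides by gene length and allows genes to be compared, the family was led by Egfr. The authors' deposited FPKM of Egfr averaged 30.0 over the 6 libraries (24.6 to 37.3) and lay above every other member in each of them. Nrg1 followed at a mean of 6.43 (3.48 to 11.7) and Erbb2 at 6.08 (3.03 to 7.72). Nrg1 lay above Erbb2 in 2 of the 6 libraries, control replicates 2 and 3. It lay below Erbb2 in control replicate 1 and in each A20-overexpressing library, so neither is ranked above the other. Hbegf at 3.28, Ereg at 2.93 and Erbb3 at 2.50 had ranges that overlapped from one to the next, and Erbb2 lay above Hbegf in each library. Areg followed at 0.900 FPKM, Tgfa at 0.266, Epgn at 0.0673 and Btc at 0.00483. The Tgfa mean rests on control replicate 1 alone, at 1.59 FPKM, and Tgfa lay above Epgn in 1 of 6 libraries.

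Egfr, the receptor of most of these ligands, was the member with the deepest counts. It lies on chromosome 11 (16752203 to 16918158, plus strand, GRCm38). It stood at 311, 319.5 and 317 CPM in control replicates 1, 2 and 3 and at 425, 321 and 355 CPM in A20-overexpressing replicates 1, 2 and 3. In CPM the groups did not overlap, by a margin of under 2 CPM between control replicate 2 and A20-overexpressing replicate 2, as was so for 16.9% of all genes tested. In deposited FPKM they did overlap, since control replicate 2 at 30.1 FPKM lay above A20-overexpressing replicate 2 at 29.1 FPKM. The log2 fold change was 0.24 ± 0.17 (SE, adjusted p = 0.667 in edgeR) with all 6 libraries and 0.17 ± 0.15 (SE, adjusted p = 0.554) without control replicate 1. With all other libraries kept it was 0.11 without A20-overexpressing replicate 1, the highest library. The difference in Egfr did not pass the test in either fit.

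Erbb2, the receptor partner without a ligand, lay on the same chromosome (98412470 to 98437716). It stood at 33.9, 14.8 and 30.8 CPM in the controls and at 39.1, 33.3 and 40.3 CPM with A20 overexpression. Control replicate 2 was the low library, at less than any of the others, and the remaining controls lay close to the lowest A20-overexpressing library. The groups overlapped in CPM and did not in deposited FPKM, as was so for 17.3% of genes on that scale. The log2 fold change was 0.55 ± 0.26 (SE, adjusted p = 0.528 in edgeR) and, without control replicate 1, 0.70 ± 0.23 (SE, adjusted p = 0.0897). With control replicate 2 also left out it was 0.29, and with control replicate 3 left out in its place it was 1.27 and past the threshold (adjusted p = 0.000268), with 1 control left in each case. Mien1, on the opposite strand, overlaps Erbb2 and had 242 to 477 counts, and the strand setting of the counting is not given in the sources used here.

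Erbb3, which binds neuregulin, set control replicate 1 apart more than it did the groups. It stood at 26.8 CPM there, at 9.34 and 13.7 CPM in control replicates 2 and 3, and at 13.4, 13.03 and 15.8 CPM with A20 overexpression. Its log2 fold change was -0.18 ± 0.33 (SE, adjusted p = 0.888 in edgeR) with all 6 libraries and 0.26 ± 0.23 (SE, adjusted p = 0.553) without control replicate 1, so that its sign turned on that library. Of the receptor FPKM summed over Egfr, Erbb2 and Erbb3, Egfr made up 71.5%, 86.5% and 77.3% in the controls and 79.4%, 76.8% and 75.1% with A20 overexpression. The Egfr share with A20 overexpression lay within the range of the controls. The Erbb2 share was 16.9%, 8.70% and 16.4% in the controls and 15.9%, 17.3% and 18.5% with A20 overexpression, with overlap between the groups.

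**Figure D2:**
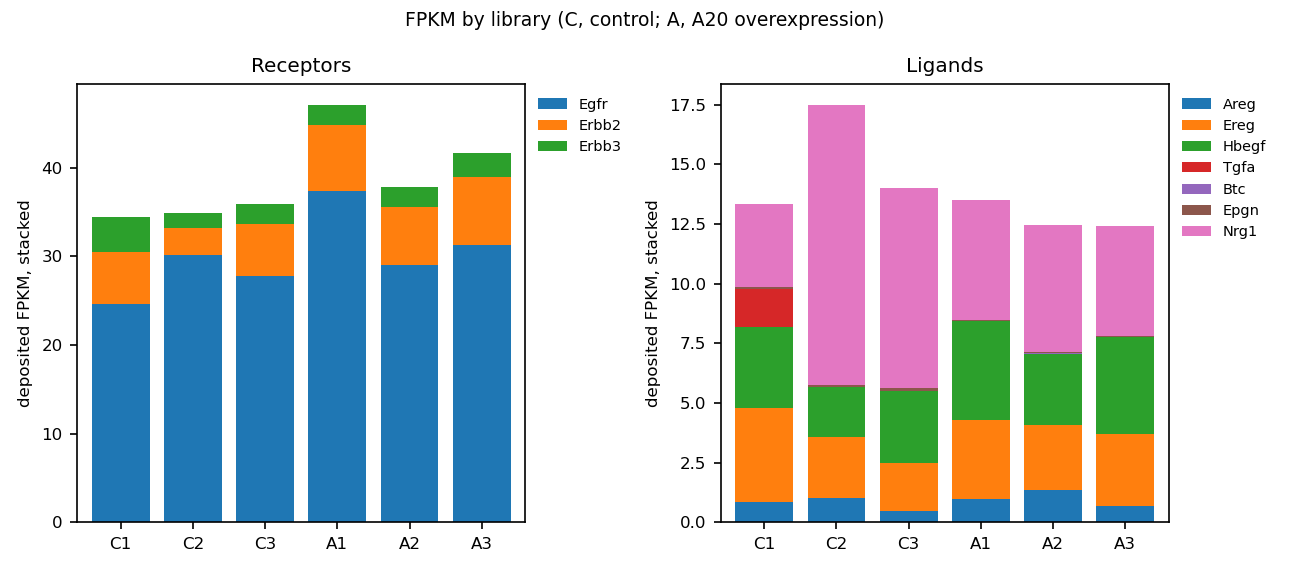
Deposited FPKM (vertical axis, stacked) of the 3 receptors and the 7 ligands in each control (C1 to C3) and A20-overexpressing (A1 to A3) library. Egfr makes up 71.5% to 86.5% of the receptor bar, and Nrg1 makes up 67.0% and 59.8% of the ligand bar in C2 and C3 against 26.1% in C1 and 37.2% to 42.9% in A1 to A3.

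Nrg1, the neuregulin gene, was the member that changed most between the groups without control replicate 1. It spans a long stretch of chromosome 8 (31814551 to 32884029, minus strand), and its 12 protein-coding transcripts in GENCODE M21 are counted together here, so that its isoforms are not resolved. It stood at 40.2, 113 and 87.3 CPM in control replicates 1, 2 and 3 and at 52.3, 54.0 and 48.0 CPM with A20 overexpression. Control replicates 2 and 3 were high, the A20-overexpressing libraries were close to one another, and control replicate 1 was the lowest of all 6. With all 6 libraries it averaged 80.3 CPM ± 37.0 (SD, n = 3) in the controls against 51.4 CPM ± 3.09 (SD, n = 3), with a log2 fold change of -0.65 ± 0.36 (SE, adjusted p = 0.579 in edgeR). Without control replicate 1 the control mean was 100.3 CPM ± 18.3 (SD, n = 2), and Nrg1 fell 2.004-fold, with a log2 fold change of -1.003 ± 0.16 (SE, adjusted p = 0.00177 in edgeR).

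The call on Nrg1 turned on whether control replicate 1 was included. It was made in 0 of 11 settings with all 6 libraries (adjusted p from 0.548 to 0.749) and in 6 of 6 settings without control replicate 1, across edgeR with other scalings, DESeq2 and limma-voom (adjusted p from 6.41e-06 to 0.00549). It was also made in 5 of 5 fits that left out a further library, with log2 fold changes from -1.22 to -0.75 and adjusted p from 6.86e-06 to 0.0294. The log2 fold change was negative in each of these 22 settings and in the 5 that left out 1 library other than control replicate 1, where the call was not made. Among those 5 it was nearest to 0 without control replicate 2, at -0.25 (adjusted p = 0.784 in edgeR). That control replicate 1 also carried the steroidogenic markers is given above, and their part in the Nrg1 values was not tested.

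**Figure D3:**
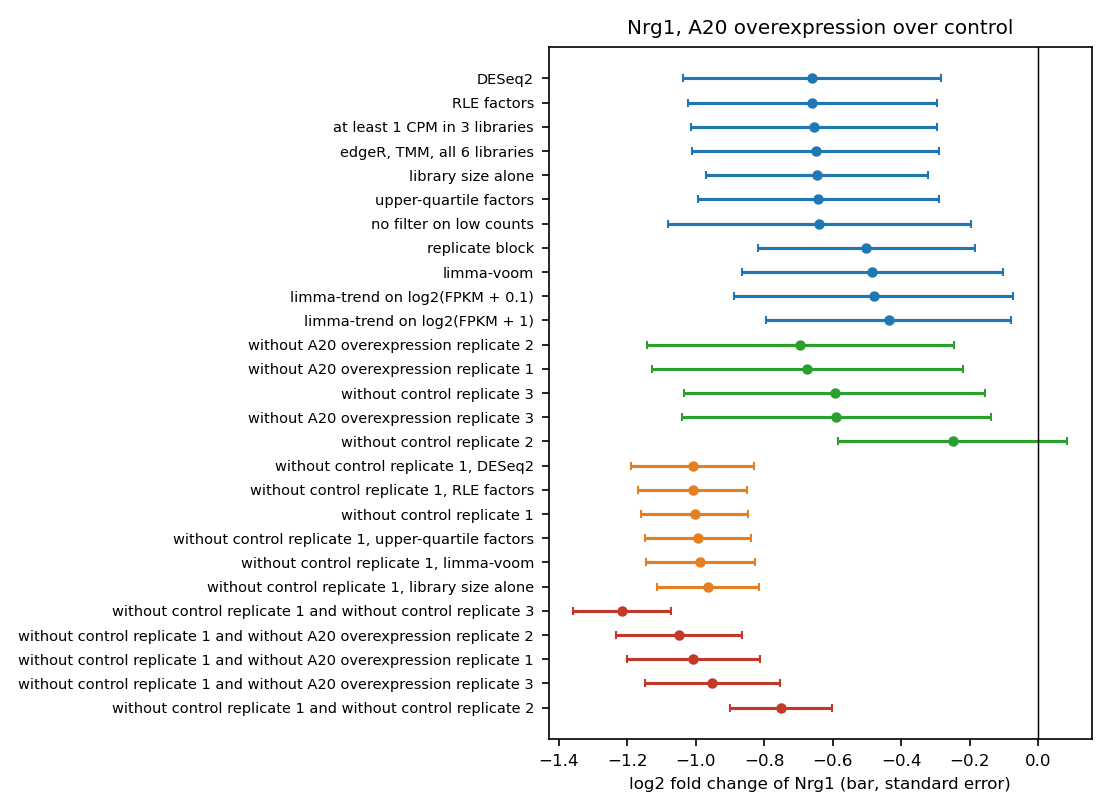
Log2 fold change of Nrg1, A20 overexpression over control (horizontal axis), with its standard error as a bar, for each setting (vertical axis), with all 6 libraries in blue, 1 library left out in green, control replicate 1 left out in orange and a further library left out in red. All points lie below 0, at -0.66 to -0.44 for blue, -1.01 to -0.96 for orange and -1.22 to -0.75 for red, and the bar of the fit without control replicate 2 crosses 0.

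Ratios within a library, which do not depend on its scaling, set Nrg1 beside its receptor, another ligand and Egfr. FPKM of Nrg1 over that of Erbb3 was 0.870, 7.05 and 3.70 in control replicates 1, 2 and 3 and 2.27, 2.41 and 1.76 with A20 overexpression. FPKM of Nrg1 over that of Ereg was 0.888, 4.60 and 4.16 in the controls and 1.51, 1.96 and 1.54 with A20 overexpression. In both of these ratios the A20-overexpressing libraries lay between control replicate 1 and the other controls. FPKM of Nrg1 over that of Egfr was 0.141, 0.388 and 0.302 in the controls and 0.134, 0.184 and 0.148 with A20 overexpression, where A20-overexpressing replicate 1 lay below control replicate 1. The summed FPKM of the 7 ligands was 13.3, 17.5 and 14.01 in the controls and 13.5, 12.5 and 12.4 with A20 overexpression.

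A cluster of 4 ligand genes lies on chromosome 5, in the order Epgn, Ereg, Areg and Btc over 376 kb (91027464 to 91402994), and they differed widely in level. Ereg, which encodes epiregulin, was the most abundant of them at 18.0, 9.83 and 8.38 CPM in the controls and 13.8, 11.0 and 12.5 CPM with A20 overexpression. Control replicate 1 was its highest library. For Ereg the log2 fold change was 0.09 ± 0.30 (SE, adjusted p = 0.941 in edgeR) with all 6 libraries and 0.41 ± 0.24 (SE, adjusted p = 0.327) without control replicate 1. Gm19610, an antisense transcript that overlaps Ereg, had 25 to 45 counts, and reads of overlapping genes cannot be told apart without the strand setting.

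Areg, which encodes amphiregulin, stood at 1.17, 1.18 and 0.578 CPM in the controls and at 1.18, 1.60 and 0.861 CPM with A20 overexpression, that is at 8 to 25 counts. The groups overlapped, and the log2 fold change of 0.34 ± 0.51 (SE, adjusted p = 0.863 in edgeR) had an error larger than itself, as had that of 0.41 ± 0.60 (SE, adjusted p = 0.745) without control replicate 1. Epgn, the gene of epigen, had 3, 2 and 3 counts in the controls and 1 in each A20-overexpressing library. These are at or under the level of 3 counts in every library, so no fold is given. Btc, the gene of betacellulin, had 2 counts in A20-overexpressing replicate 2 and 0 in the other 5 libraries. Within 376 kb of one cluster, levels thus ran from none detected in 5 libraries for Btc to 2.02 to 3.92 FPKM for Ereg.

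Hbegf, the gene of heparin-binding EGF-like growth factor on chromosome 18, stood at 8.93, 4.67 and 7.22 CPM in the controls and at 9.87, 6.90 and 9.604 CPM with A20 overexpression. As for Erbb2, control replicate 2 was the low library and the groups overlapped. The log2 fold change was 0.38 ± 0.32 (SE, adjusted p = 0.716 in edgeR) with all 6 libraries and 0.53 ± 0.29 (SE, adjusted p = 0.29) without control replicate 1.

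Tgfa, the gene of TGF-alpha (chromosome 6, 86195223 to 86275719), was found in control replicate 1 alone. It had 177 counts there, 11.5 CPM, and 0 counts in each of the other 5 libraries. That is at least 53.2-fold above the level of 3 counts in any of them, a comparison of libraries and not of the groups. Control replicate 1 held 164 genes with at least 100 counts and 0 counts elsewhere, 1.56% of its genes at that depth, and none of the other 5 libraries held such a gene. The only listed gene that overlaps Tgfa, Gm43917, had 0 counts in each library. Tgfa was too low in the others to be tested, and in a fit without a filter on low counts edgeR called 0 of the 10 members.

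**Figure D4:**
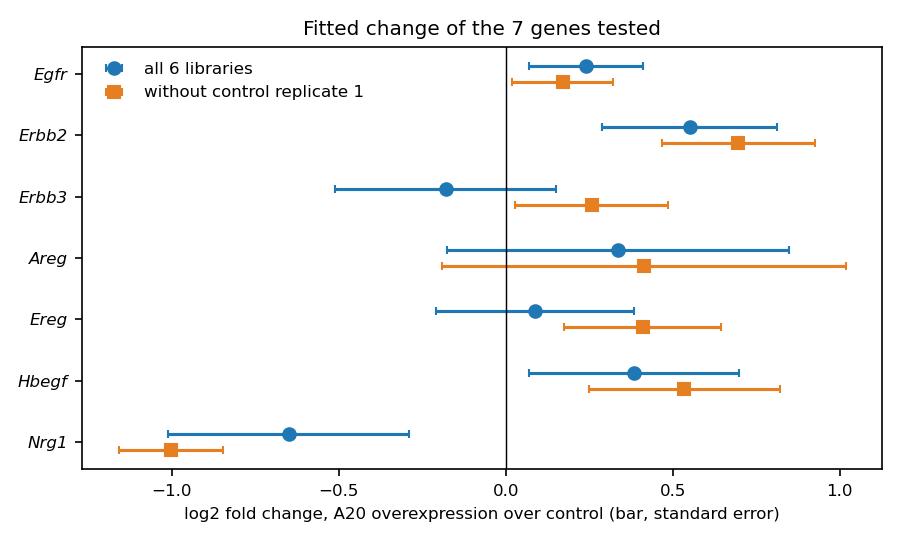
Log2 fold change of the 7 tested genes, A20 overexpression over control (horizontal axis), with its standard error as a bar, with all 6 libraries (blue circles) and without control replicate 1 (orange squares). Nrg1 is at -0.65 and -1.003, and Erbb3 moves from -0.18 to 0.26 between the fits.

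Control replicate 1 was the highest library for Erbb3, Ereg and Tgfa and the lowest for Egfr and Nrg1. Over all genes tested it was the highest for 40.7% and the lowest for 21.7%.

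Among 73 other genes of the pathway, taken as lists of further family members, shedding enzymes, downstream kinases, negative regulators and induced genes, 67 were tested. With all 6 libraries edgeR called 0 of them, against 0.015% of all genes, while DESeq2 called Adam12 lower and limma-voom called 0. At an unadjusted p under 0.05 there were 6 higher and 2 lower of the 67, a share near the 10% of all genes. For 8 of the 67 the CPM of the groups lay apart, with A20 overexpression higher in 5 and lower in 3, where 16.9% of all genes did. Their median log2 fold change was 0.05. Without control replicate 1 edgeR called 3 higher and 1 lower of 67, against 1.92% and 2.68% of all genes. Their median log2 fold change in that fit was 0.05, beside -0.0028 over all genes tested.

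Of the other family members, Erbb4, Nrg2 and Nrg3 had 0 counts in all 6 libraries, so that ERBB3 was the only neuregulin receptor with counts. Egf had 5 to 30 counts and was not tested, and Nrg4, a further neuregulin, had a log2 fold change of -0.10 ± 0.58 (SE, adjusted p = 0.968 in edgeR) at 0.596 to 2.22 CPM. Without control replicate 1 the sign of Nrg4 turned, to 0.34 ± 0.61 (SE, adjusted p = 0.801). Control replicate 1 held the highest value of both Egf and Nrg4.

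Among the 8 shedding enzymes, Adam12, a metalloprotease that can release heparin-binding EGF-like growth factor, was the 1 that fell without control replicate 1. It stood at 19.2, 6.27 and 9.90 CPM in the controls and at 2.36, 3.004 and 3.51 CPM with A20 overexpression, with no overlap between the groups. Its log2 fold change was -1.93 ± 0.42 (SE, unadjusted p = 0.00145, adjusted p = 0.238 in edgeR) with all 6 libraries and -1.48 ± 0.32 (SE, adjusted p = 0.0158) without control replicate 1, a fall of 2.78-fold. It was not called when A20-overexpressing replicate 1 (adjusted p = 0.0921) or replicate 2 (adjusted p = 0.0712) was left out as well. The other 7 had log2 fold changes from -0.25 to 0.13 in that fit, and Adam9, the most abundant, was at -0.02 ± 0.14 (SE, adjusted p = 0.956) there and at 0.06 ± 0.16 (SE, adjusted p = 0.925) with all 6 libraries.

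Among 24 adaptors and downstream kinases, Map2k2, which encodes the MAP kinase kinase MEK2, rose without control replicate 1. It stood at 132, 82.5 and 114 CPM in the controls and at 128, 159 and 172 CPM with A20 overexpression. Control replicate 1 lay above the lowest A20-overexpressing library. Its log2 fold change was 0.52 ± 0.19 (SE, adjusted p = 0.435 in edgeR) with all 6 libraries and 0.61 ± 0.16 (SE, adjusted p = 0.0423) without control replicate 1. With limma-voom in that comparison the adjusted p was 0.0532, and edgeR did not call it when any library but control replicate 3 was left out as well (adjusted p from 0.0611 to 0.218). Map2k1, its paralog and the most abundant of the list, had a log2 fold change of 0.25 ± 0.14 (SE, adjusted p = 0.316) in that fit and of 0.29 ± 0.15 (SE, adjusted p = 0.544) with all 6 libraries.

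None of the 16 negative regulators was called in either fit, with 4 higher and 1 lower at an unadjusted p under 0.05 without control replicate 1 (21.6% of all genes in either direction), where DESeq2 and limma-voom also called 0. Rnf41, a ubiquitin ligase for ERBB3 and the most abundant of the list, had a log2 fold change of 0.20 ± 0.22 (SE, adjusted p = 0.794 in edgeR) with all 6 libraries and of -0.02 ± 0.14 (SE, adjusted p = 0.948) without control replicate 1, so that its sign turned on that library.

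Among 20 immediate early and growth factor induced genes, of which 18 were tested, edgeR called Myc and Ptgs2 higher without control replicate 1. In that comparison DESeq2 also called Phlda1 higher (adjusted p = 0.0644 in edgeR), and limma-voom called Myc alone of this list. Ptgs2, the prostaglandin synthase COX-2, stood at 24.6, 29.6 and 29.2 CPM in the controls and at 51.8, 40.6 and 45.4 CPM with A20 overexpression, with control replicate 1 on the side of the other controls. Its log2 fold change was 0.74 ± 0.19 (SE, unadjusted p = 0.00351, adjusted p = 0.276 in edgeR) with all 6 libraries and 0.61 ± 0.16 (SE, adjusted p = 0.041) without control replicate 1. In that comparison limma-voom gave an adjusted p of 0.0565, and edgeR did not call Ptgs2 when any A20-overexpressing library was left out as well (adjusted p from 0.075 to 0.193).

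Myc, a growth-promoting transcription factor, stood at 122, 38.1 and 49.8 CPM in the controls and at 73.5, 66.9 and 82.1 CPM with A20 overexpression, so that control replicate 1 was the highest of all. With all other libraries kept, its log2 fold change was -0.10 without control replicate 2 and -0.02 without control replicate 3. Its log2 fold change was 0.15 ± 0.34 (SE, adjusted p = 0.909 in edgeR) with all 6 libraries and 0.73 ± 0.16 (SE, adjusted p = 0.0151) without control replicate 1, and it was not called when any A20-overexpressing library was left out as well (adjusted p from 0.0505 to 0.102). Ier3, the most abundant of the list, had a log2 fold change of 0.22 ± 0.16 (SE, adjusted p = 0.444) in that fit and of 0.29 ± 0.17 (SE, adjusted p = 0.607) with all 6 libraries. The list's median was 0.05 with all 6 libraries and 0.32 without control replicate 1. Of the 18 genes, 9 had positive and 9 negative log2 fold changes with all 6 libraries, against 13 and 5 without control replicate 1. Fos was the lowest of the list in both fits. Its log2 fold change was -1.30 ± 0.47 (SE, adjusted p = 0.441 in edgeR) with all 6 libraries. Without control replicate 1 it was -1.02 ± 0.50 (SE, adjusted p = 0.291).

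**Figure D5:**
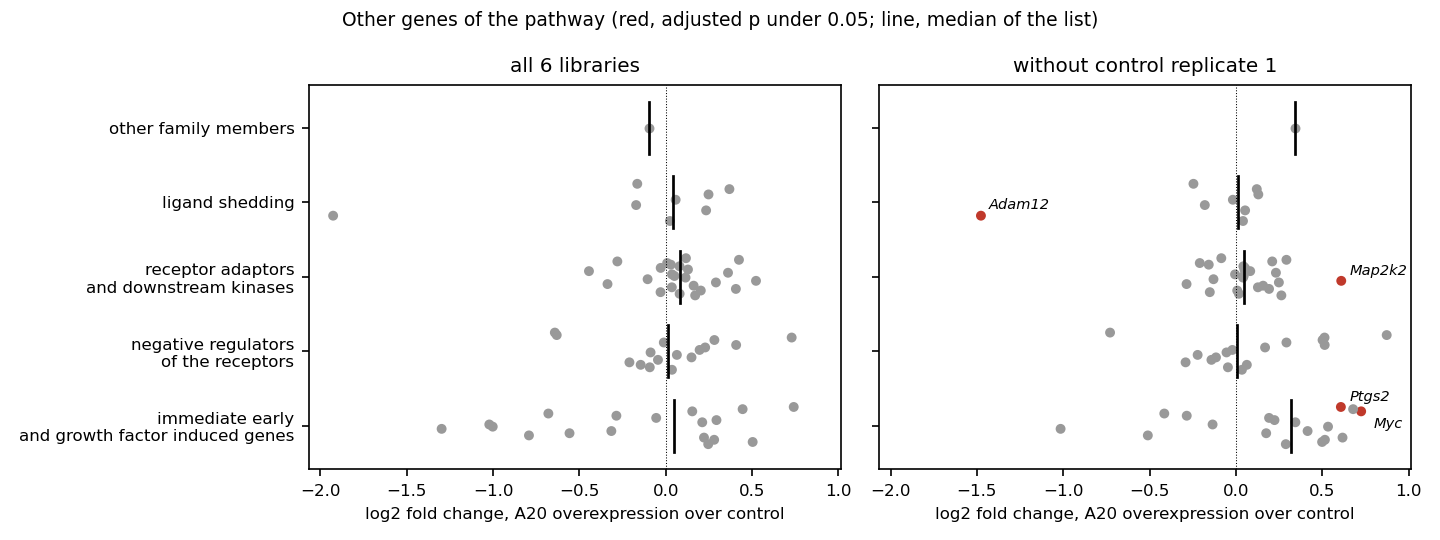
Log2 fold change, A20 overexpression over control (horizontal axis), of each tested gene in 5 lists (vertical axis), with all 6 libraries (left) and without control replicate 1 (right), with the list's median as a black line and called genes in red. No gene is red on the left, and Adam12, Map2k2, Myc and Ptgs2 are red on the right.

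The markers of other cell types were read in the same libraries. The macrophage markers Ptprc and Adgre1 and the Sertoli cell marker Sox9 had 0 counts in all 6 libraries. The 5 macrophage markers summed to 5.93 CPM in control replicate 1, to 32.6 and 34.7 CPM in the other controls and to 22.7 to 42.9 CPM with A20 overexpression, mostly Cd68, which stood at 3.71 CPM in control replicate 1 and at 19.3 to 38.7 CPM in the other 5 libraries. The 5 epithelial markers, of a cell type rich in EGF family ligands, summed to 3.42 to 4.77 CPM in the controls and 4.20 to 5.10 CPM with A20 overexpression. The 5 Sertoli cell markers summed to 231 CPM in control replicate 1, to 22.9 and 31.3 CPM in control replicates 2 and 3 and to 9.16 to 13.6 CPM with A20 overexpression, and of this Clu made up 221, 22.9 and 31.1 CPM in the controls and 9.10 to 13.3 CPM with A20 overexpression. These sums lay apart between the groups, as did the CPM of Clu, which was so for 16.9% of all genes tested. Clu had a log2 fold change of -2.93 (adjusted p = 0.298 in edgeR) with all 6 libraries. Without control replicate 1 it was -1.30 (adjusted p = 0.00288). The part of the Sertoli cell markers in the results was not tested. The 5 fibroblast or stromal markers summed to 4017 CPM in control replicate 1, to 10667 and 12841 CPM in the other controls and to 13826 to 14718 CPM with A20 overexpression, and most of this sum was Col1a1 and Col1a2. The groups lay apart in this sum too. Dcn, of the same list, went the other way without control replicate 1, at 145 and 231 CPM in control replicates 2 and 3 and 44.3 to 52.2 CPM with A20 overexpression (log2 fold change -2.02, adjusted p = 2.58e-06 in edgeR), with control replicate 1 at 21.4 CPM. With all 6 libraries its log2 fold change was -1.50 (adjusted p = 0.498). Control replicate 1 also held the highest sums of the endothelial, germ cell and peritubular myoid markers. The 5 endothelial markers summed to 36.7 CPM there, mostly Cdh5, and to 3.31 to 5.11 CPM in the other 5 libraries. Egfl7, of the same list, was lowest there, at 1.04 CPM against 3.05 to 4.47 CPM. The 5 germ cell markers summed to 24.9 CPM there and to 6.06 to 12.2 CPM in the others. Kit made up 15.5 CPM of the sum there and had 0 counts in the others, while Dazl and Stra8 had 0 counts there. The 4 peritubular myoid markers summed to 88.7 CPM there and to 36.7 to 59.6 CPM in the others. Acta2 made up 77.6 CPM of the sum there, while Des was lowest there, at 6.58 CPM against 14.7 to 19.3 CPM. The part of these markers in the results was not tested.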

How the data were processed

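Whole-number counts per gene were used as deposited by the authors. The authors' deposited FPKM equal the count divided by gene length and by a library size that the authors scaled, and served for levels between genes and for 2 alternatives. Per the submitters' processing notes the build was GRCm38 (mm10), and per the labels' protocols a SMARTER mRNA kit was used for the libraries. Neither the aligner nor the counter nor its strand setting is given in the sources used here. Gene models of 9 of the 10 members matched GENCODE M21, and Hbegf differed. Groups came from the sample titles. The comparison was tested with edgeR 4.0.16 (R 4.3.3): TMM scaling, the default expression filter, robust quasi-likelihood F tests and p-values adjusted by Benjamini-Hochberg across the filtered genes (threshold 0.05). The procedure was tested on simulated counts, in which no library was made to stand apart as control replicate 1 does. Standard errors are the log2 fold change divided by the root of F. Alternatives were other scalings and filters, DESeq2 1.42.0, limma 3.58.1 (voom, and trend on log2(FPKM + 1) and log2(FPKM + 0.1)), a replicate block and left-out libraries. Members and lists were chosen with earlier results of these data known. Named were the 10 members, Tnfaip3, up to 3 called genes per list and fit, and the most abundant gene of each list. Fos was added as the lowest of its list, and Phlda1 as called by DESeq2 without control replicate 1. For members at 5 CPM or more, the 2 genes most correlated over the libraries were also named.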

Additional observations from a re-analysis of the deposited data

How the results depend on the processing

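With all 6 libraries edgeR called 2 genes, and 2 with RLE factors, 2 with the filter of 1 CPM in 3 libraries, 0 with upper-quartile factors or library size alone, 23 without a filter on low counts, 183 with DESeq2 and 0 with limma-voom or with limma on either FPKM scale. Leaving out libraries gave 0 to 2423 genes called. Without control replicate 1 the total was 628 with edgeR, 651 with RLE factors, 593 with upper-quartile factors, 492 with library size alone, 888 with DESeq2 and 519 with limma-voom. Members called were 0 in each setting with all 6 libraries and 0 to 2 with libraries left out; 1, Nrg1, was called under each tool and scaling without control replicate 1. Erbb3 was at -0.42 without control replicate 2 and turned from -0.18 to between 0.05 and 0.51 in the 11 fits without control replicate 1 (0.26 with edgeR, 0.25 with DESeq2 and with RLE factors, 0.27 with limma-voom and with upper-quartile factors, 0.29 with library size alone). Ereg turned from 0.09 to -0.10 without control replicate 3 and to -0.01 without A20-overexpressing replicate 1, with 0.58 as its highest value (without control replicates 1 and 2). Areg turned from 0.34 to -0.039 without control replicates 1 and 3, and reached 1.07 without control replicates 1 and 2. For these signs the cause was not tested.

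Same-numbered libraries deviated together at correlations of 0.0258, 0.115 and -0.0387, and not each correlated best with its own number. These correlations cannot decide whether a shared number marks a shared batch, since control replicate 1 weighs on the deviations of every control. The labels do not say either. With the replicate block edgeR called 2 genes and 0 members, and Nrg1 had a log2 fold change of -0.50. Without a filter the median of all genes was -0.16, against -0.03. At 8 to 25 counts, depth limits Areg, and Epgn and Btc lie at or under 3 counts.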

Other observations

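The genes whose log2(CPM + 0.5) followed a member most closely over the 6 libraries, among 10282 genes averaging 5 CPM or more, were Appbp2 and Ythdf1 for Egfr (Pearson r = 0.965 and 0.95), Sav1 and Ncln for Erbb2 (0.999 and 0.998), and Arhgef18 and Ppp1r8 for Erbb3 (0.997 and 0.996). For the ligands they were Cggbp1 and Dkc1 for Ereg (0.993 and 0.99), Spire2 and Faap100 for Hbegf (0.999 and 0.994), and Slf2 and Wdr48 for Nrg1 (0.998 and 0.99). These are the highest of many values over 6 points that share control replicate 1 as an extreme, and they are given as a description.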
